A study of Danio rerio with 12 samples.

Results

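Solute carriers are membrane proteins that move amino acids, sugars, ions, metals, vitamins and metabolic acids across the plasma membrane and organelle membranes, and their names carry a family number that groups them by sequence and, broadly, by substrate. Growing tissue depends on them for amino acid and glucose uptake, for lactate export and for the exchange of metabolites with mitochondria. The genes described here are those whose symbol in the array's platform annotation begins with slc and a digit. There were 137 such genes, read by 158 probe sets in 39 families, among 8793 genes with a symbol of their own. Of them 119 had 1 probe set and 18 had more, and each gene took the mean log2 ratio of its probe sets. A further 5 probe sets carry slc3a2b beside calmodulin genes in the annotation and were left out. By name the rule also takes in slc4a1ap and slc7a6os, which are not transporters themselves.

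Zebrafish larvae of the AB strain lost the caudal fin at 2 days post fertilization and spent the next 1 h in DMSO (vehicle) or in 0.5 ng/mL TCDD, a dioxin that activates the aryl hydrocarbon receptor, a ligand-dependent transcription factor. Regrown tissue was sampled 2 or 3 days post amputation (dpa), which gave 4 groups of 3 arrays, 1 for each treatment on each day. The RNA on an array came from 150 pooled fins, so larva-to-larva variation is not seen in the p-values, which rest on pools. No unamputated fin is among the groups, and the whole regrown fin was taken, with every cell type in it. A value is the log2 of the deposited ratio, which for most probe sets is relative to their own median over the 12 arrays. The ratios of 35 of the 158 slc probe sets have a median below 1, so their divisor was something larger that the sources used here do not state. Levels of different genes therefore cannot be compared, a gene that is not expressed cannot be told from one that did not vary, and the tissue label cannot be checked against markers. In whole tissue, fewer cells of a type and less RNA per cell cannot be told apart. An effect is a difference of group means on the log2 scale with the standard error (SE) of a limma fit to all 12 arrays, and "called" means a p-value, Benjamini-Hochberg adjusted across 13500 features (genes, or probe sets without a gene of their own), of less than 0.05.

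A set of 3 arrays, chosen after the values of all features were seen, stood apart from the rest. TCDD 2 dpa replicate 3 and TCDD 3 dpa replicates 1 and 3 each had 54 to 76 features over 4-fold above their median. The other 9 arrays had 3 to 18. Features over 4-fold below their median numbered 24, 16 and 76 on the 3 arrays, against 1 to 24 on the other 9. On the lower side only TCDD 3 dpa replicate 3 thus stood apart. Over the 13500 features these 3 arrays correlated with one another at 0.68 to 0.89, and with the other 9 at 0.03 to 0.55. The highest value joined TCDD 2 dpa replicate 3 with TCDD 3 dpa replicate 1, while its correlation with its own group was 0.43 and 0.45. The correlations rest on the scaled ratios, and the sample labels used here name no batch for any array. Whether the day label of TCDD 2 dpa replicate 3 holds was not tested, and every single-day value and difference between days takes it as given. Without the 3 arrays the mean TCDD effect of 35 of the 137 genes changed sign, and the count over all features is not given here. Of the called genes 0 were among them. Where the TCDD and vehicle arrays of a gene did not overlap on either day, leaving out arrays cannot change the sign. Without the 3 arrays TCDD has 2 arrays at 2 dpa and 1 at 3 dpa, and the lone array is assumed to vary like the other groups. The 3 arrays hold the most high readings, so leaving them out tends by construction to shrink large increases. Values without them are therefore not an independent check. In all 6 TCDD arrays the 5′ GAPDH control probe set read higher against the 3′ one (0.17 to 0.49) than in the 6 vehicle arrays (−0.10 to 0.08), and the part of this difference in the TCDD results was not tested. Hybridisation controls were higher on the vehicle 3 dpa arrays and TCDD 3 dpa replicate 2 (0.26 to 0.34) than on the other 8 (−0.14 to −0.01). Vehicle arrays thus divide by this level as they do by day, and only the TCDD 3 dpa group held both levels.

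The first comparison asks how TCDD altered transporter transcripts over both days, as the mean of the 2 dpa and 3 dpa effects. Of the 137 genes 7 were called: slc38a2 and slc25a38b rose, and slc1a3a, slc2a11b, slc2a15b, slc37a4a and slc39a7 fell. That is 5.11% of the genes, against 5.8% of all features (3.65% lower against 3.67%, and 1.46% higher against 2.13%). All TCDD arrays lay on one side of all vehicle arrays in 7 genes (5.11%), 1 above (0.73%, against 1.76%) and 6 below (4.38%, against 2.9%), with 4.66% of all features in either direction. An effect above 0 was found in 71 genes (51.8%, against 50.9%). The median effect of the 137 genes was 0.01, and that of all features was 0.00. Changes over 1 log2 unit in either direction were found in 10 of the 137 genes (7.3%), against 2.7% of all features. The 10 were slc16a9a, slc16a3b, slc38a2, slc16a9b, slc6a17 and slc1a2b on the higher side and slc2a11b, slc39a7, slc16a12b and slc2a10 on the lower side. Without the 3 arrays 2 of these 10, slc38a2 and slc1a2b, were still over 1 log2 unit, as were 148 of the 365 features of that size. The only probe set of slc1a2b has a median ratio of 0.44.

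**Figure D1:**
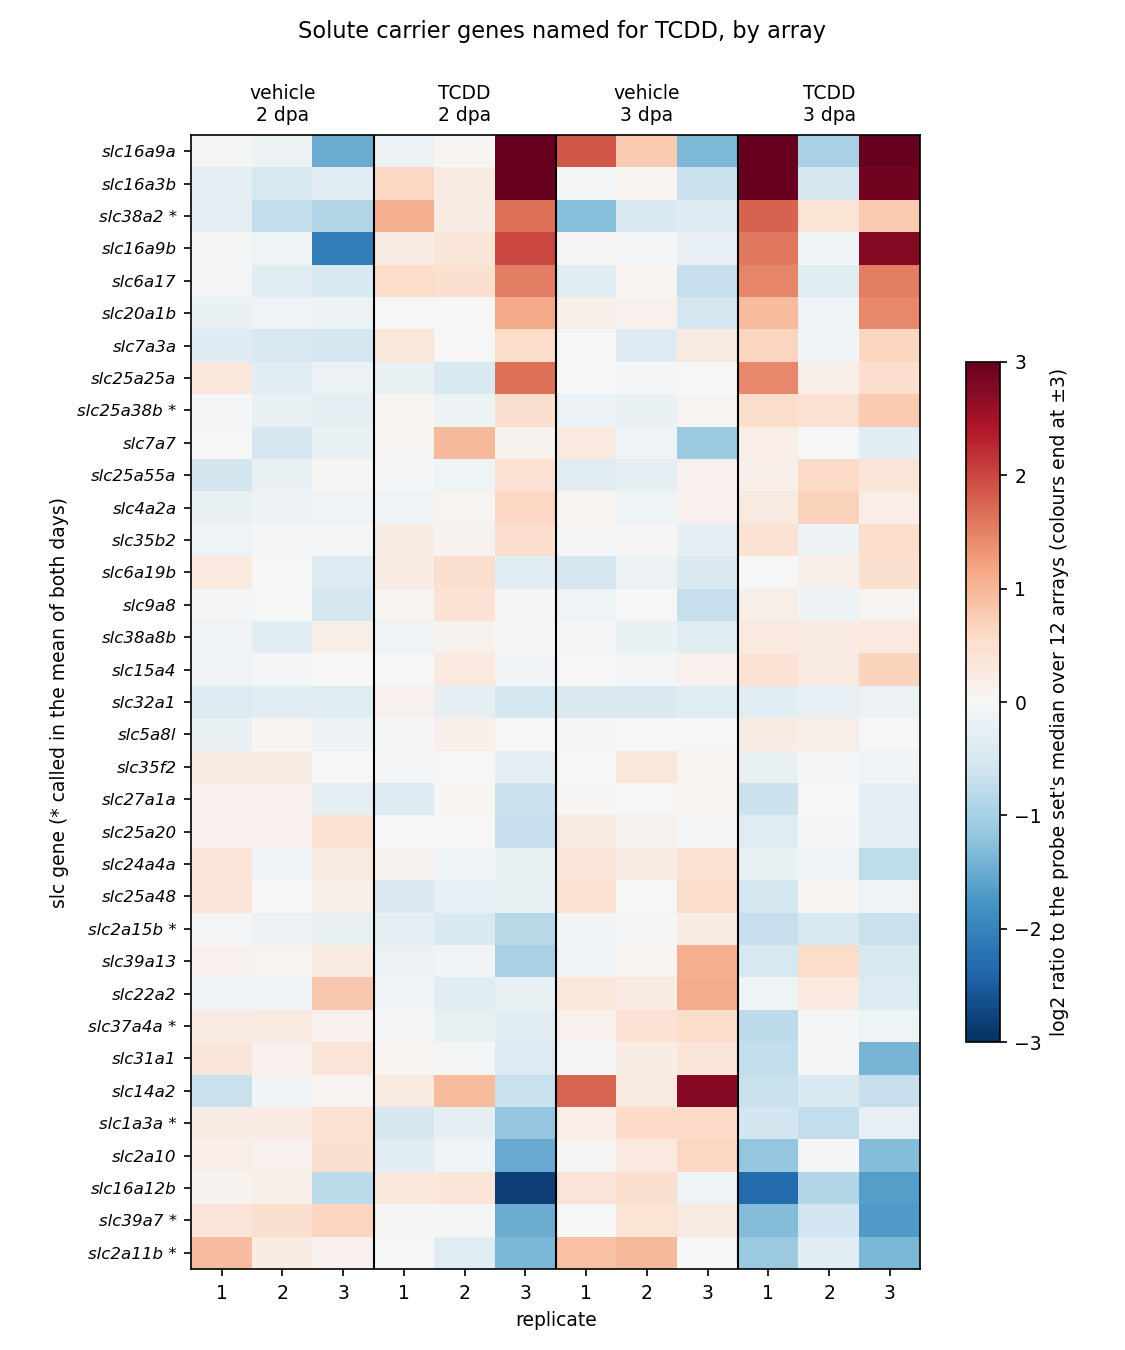
Log2 ratio to each probe set's median (colour, ending at ±3) for the slc genes named for TCDD, in rows ordered by their mean TCDD effect, on the 12 arrays in columns grouped by treatment and day. The top rows, slc16a9a and slc16a3b, are darkest on TCDD 2 dpa replicate 3 and TCDD 3 dpa replicates 1 and 3, while slc38a2 is above 0 on all 6 TCDD arrays.

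The number of called slc genes depended on single arrays, and so did that of all features. With 1 array left out at a time the calls over all features ran from 310 to 1417, against 783 with all 12 arrays. The slc count was 2 without vehicle 2 dpa replicate 1 or 2, vehicle 3 dpa replicate 1 or TCDD 3 dpa replicate 3. It was 3 without vehicle 2 dpa replicate 3 or TCDD 3 dpa replicate 1, and 4 without vehicle 3 dpa replicate 2. Without TCDD 3 dpa replicate 2, an array unlike the other 2 of its group, 20 slc genes were called, all of the 7 among them. With 1 array left out at a time, the calls of slc1a3a and slc38a2 held in all 12 fits. That of slc2a15b held in 7, those of slc25a38b and slc39a7 in 4, and those of slc2a11b and slc37a4a in 3. Without the 3 arrays that stand apart all of the 7 were on the same side of 0 as with all arrays. Except for slc25a38b this was fixed in advance, since the TCDD and vehicle arrays of the other called genes did not overlap on either day. With the hybridisation control level as a block slc1a3a alone was called. Only the TCDD 3 dpa group held both levels, so that block takes the 3 dpa effect from TCDD 3 dpa replicate 2 alone. Leaving out the 3 arrays does the same at 3 dpa, so these 2 checks are not independent.

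Among the amino acid carriers, slc1a3a, which encodes a sodium-coupled glutamate transporter known from glia, fell. The 3 vehicle arrays read 0.22, 0.25 and 0.45 at 2 dpa and 0.21, 0.57 and 0.58 at 3 dpa. The TCDD arrays read −0.50, −0.29 and −1.17 at 2 dpa and −0.54, −0.74 and −0.24 at 3 dpa. Every TCDD array lay below every vehicle array on both days. The mean effect was −0.96 (SE 0.15, n = 6 against 6, limma adjusted p = 0.0101), or 1.94-fold lower, with a 95% interval from −1.30 to −0.62. It was −0.95 without the 3 arrays (adjusted p = 0.017), and the call held whichever single array was left out (0.00975 to 0.0289) and in every alternative run (0.0045 to 0.0289). The glial marker gfap had an effect of 0.04, and none of the 12 measured neural and eye markers was called. In 6 of the 12, gfap among them, all probe sets have median ratios below 1, so these values say little about glia.

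The gene slc38a2 encodes a sodium-coupled carrier of small neutral amino acids whose transcript rises in mammalian cells when amino acids are scarce. Its vehicle arrays read −0.27, −0.73 and −0.88 at 2 dpa and −1.27, −0.47 and −0.38 at 3 dpa. Its TCDD arrays read 1.06, 0.23 and 1.66 at 2 dpa and 1.77, 0.41 and 0.79 at 3 dpa. All 6 TCDD arrays were above all 6 vehicle arrays. The mean effect was 1.65 (SE 0.30, adjusted p = 0.017), or 3.14-fold higher (95% interval 0.98 to 2.32). The call held without any single array (at most 0.0451) and was lost with the hybridisation level as a block (1.36, 0.0785) and without the 3 arrays (1.19, 0.0771). Over all its alternatives the lowest adjusted p was 0.00603. Within the higher hybridisation level, TCDD 3 dpa replicate 2 was 1.11 above the mean of the 3 vehicle 3 dpa arrays.

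**Figure D2:**
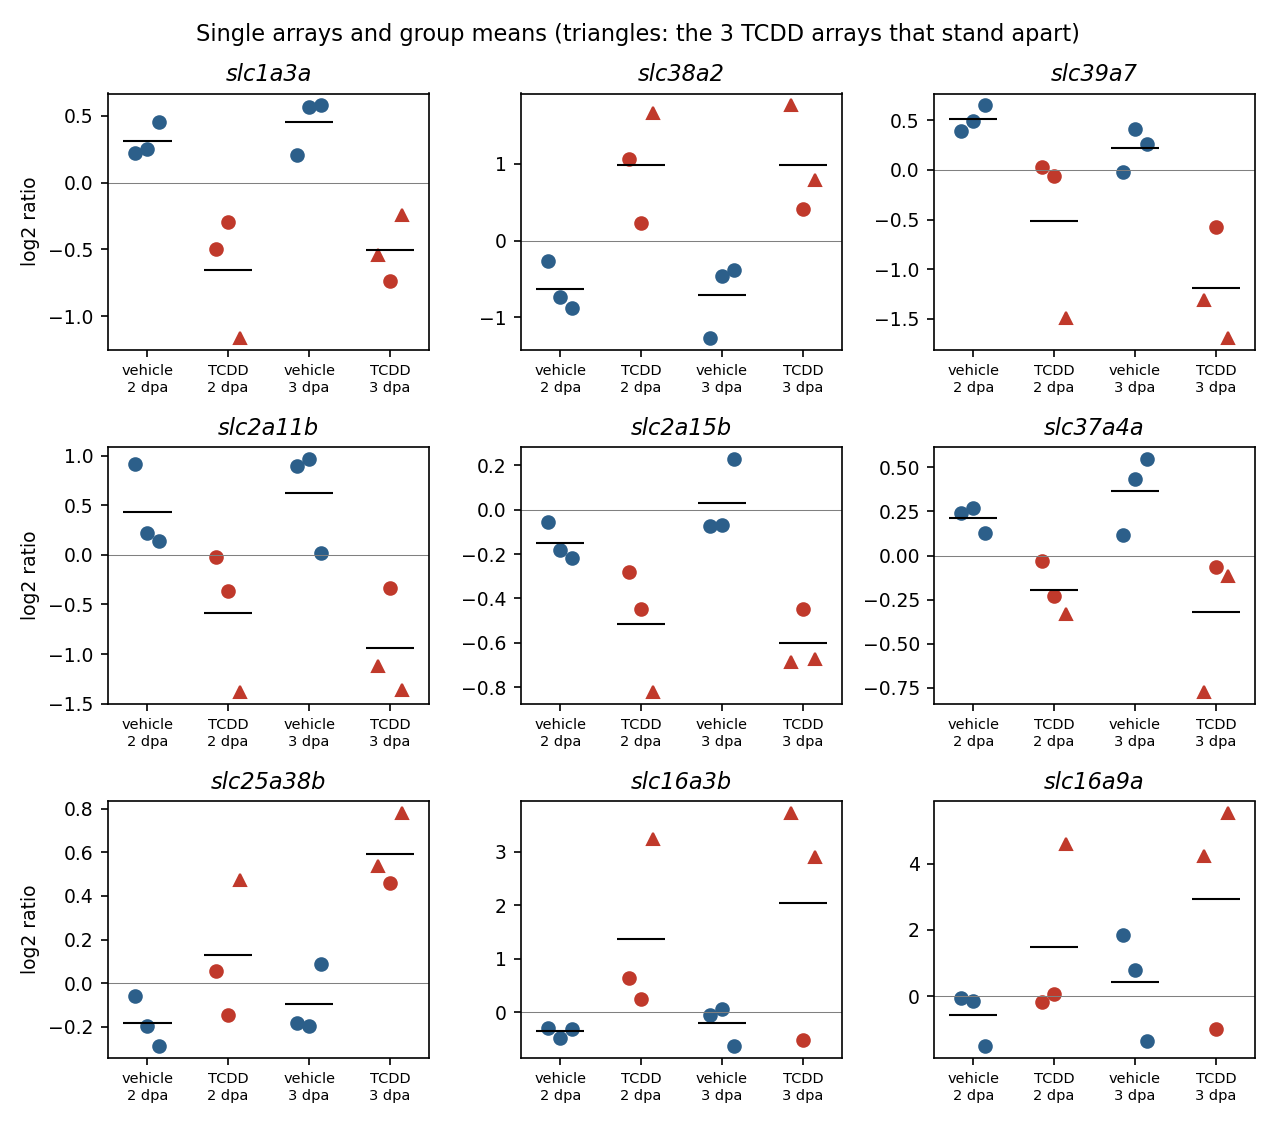
Log2 ratio (vertical axis) on each array, by group (horizontal axis), for the 7 called genes and for slc16a3b and slc16a9a. Blue points are vehicle arrays, red points TCDD arrays, triangles the 3 TCDD arrays that stand apart, and bars the group means. In slc1a3a and slc38a2 circles and triangles alike lie apart from the vehicle arrays, while in slc16a3b and slc16a9a the triangles stand far above all other arrays.

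The amino acid class, counted by family number, held 27 genes with a median effect of 0.13, 18 of them above 0, with 1 called higher and 1 lower. Of the slc38 family 5 of 6 effects were above 0, and the other 5 members lay between −0.15 and 0.28, far from slc38a2. In the slc7 family, light chains and cationic amino acid carriers, effects ran from −0.002 (slc7a1b) to 0.80 (slc7a8a), and none was called. The family number also takes in slc7a6os (−0.16, not called), which is not a transporter and is counted in the class of 27. The cationic amino acid carrier gene slc7a3a was 0.60 higher (SE 0.16, adjusted p = 0.0573), with TCDD above vehicle on every 2 dpa array and overlapping groups at 3 dpa. Its effect without the 3 arrays was 0.30 over both days and −0.04 at 3 dpa. The genes slc3a2a and slc3a2b encode the heavy chain that brings light chains such as Slc7a8 to the membrane. They read −0.08 and −0.17, and neither was called. The vesicular neutral amino acid carrier gene slc6a17 was 1.17 higher (adjusted p = 0.0704), with 0.56, 0.48 and 1.54 at 2 dpa and 1.47, −0.37 and 1.53 at 3 dpa on the TCDD arrays. Its vehicle arrays lay between −0.68 and 0.05, so TCDD 3 dpa replicate 2 fell among them, and without the 3 arrays the effect was 0.38. The neutral amino acid exchanger gene slc1a4 had an effect of 0.19 (adjusted p = 0.865), and 0.84 without the 3 arrays. The glutamate transporter gene slc1a2b, chosen after its values were seen, read from −1.26 to −1.08 on 9 arrays and 1.97, 1.04 and 0.18 on TCDD 2 dpa replicate 1 and TCDD 3 dpa replicates 2 and 3. Its effect of 1.09 (adjusted p = 0.291) rests on those readings and was 1.89 without the 3 arrays. The only slc1a2b probe set has a median ratio of 0.44, so its divisor was larger than its median.

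The glucose transporter genes slc2a11b and slc2a15b, both known from pigment cell mutants of medaka, fell. The vehicle arrays of slc2a11b read 0.92, 0.22 and 0.14 at 2 dpa and 0.89, 0.96 and 0.02 at 3 dpa. Its TCDD arrays read −0.02, −0.36 and −1.38 at 2 dpa and −1.12, −0.34 and −1.36 at 3 dpa, all below the vehicle arrays but with a gap of less than 0.05 between the closest pair. The mean effect was −1.29 (SE 0.29, adjusted p = 0.0327), or 2.44-fold lower. For slc2a15b it was −0.50 (SE 0.10, adjusted p = 0.0251). Its 2 probe sets disagreed: 1 read −0.99 (adjusted p = 0.0154), while the other, with a median ratio of 0.70, read −0.01. Without the 3 arrays the effects were −0.79 for slc2a11b (adjusted p = 0.177, the highest over its alternatives, from 0.0112) and −0.35 for slc2a15b (0.109). The adjusted p of slc2a15b lay between 0.00967 and 0.969 over its alternatives, the highest being that of the second probe set alone.

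Some pigment cell markers were also lower. Of 4 measured melanophore markers dct, an enzyme of melanin synthesis, and mitfa, the transcription factor of the melanophore lineage, were called lower (−1.45, adjusted p = 0.022, and −0.87, adjusted p = 0.0187). The markers tyr and pmelb, both with median ratios below 1, had effects of −0.17 and 0.01 and were not called. The mean of the 4 ran from −0.54 to −0.10 on vehicle arrays and from −1.23 to −0.64 on TCDD arrays. Of 8 measured genes of pteridine pigment cells, a list added after the values of slc2a11b were seen, gch2 was called lower (−0.90, adjusted p = 0.0327) and 7 were not called, with 4 of the 8 effects above 0 and a median of −0.03. The mean of these 8 ran from −0.16 to −0.04 on vehicle and from −0.39 to −0.19 on TCDD arrays. No member of either list was at a ratio of 0, but neither was any deposited ratio (lowest 0.000773), so this says nothing about detection. The part of pigment cell number in the fall of slc2a11b and slc2a15b was not tested.

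Other sugar carriers varied by member. The slc2 family held 8 genes with a median effect of −0.02, 2 of them called lower. The gene slc2a10, which encodes a glucose transporter family member of internal membranes, was 1.04 lower on the log2 scale, an effect of −1.04 (SE 0.28, adjusted p = 0.0585), with every TCDD array below every vehicle array. On TCDD 2 dpa replicate 3 and TCDD 3 dpa replicates 1 and 3 it read −1.52, −1.17 and −1.31, against −0.34, −0.10 and −0.04 on the other TCDD arrays, and without those 3 the effect was −0.42. The remaining 5 slc2 genes lay between −0.05 and 0.15. Among them the only probe sets of slc2a3a, slc2a8, slc2a9l1 and slc2a11l have median ratios below 1 (0.96, 0.69, 0.65 and 0.87). The gene slc37a4a encodes the glucose-6-phosphate carrier of the endoplasmic reticulum and fell by 0.55 on the log2 scale (SE 0.13, adjusted p = 0.0403), or 1.46-fold. Vehicle arrays read 0.24, 0.27 and 0.13 at 2 dpa and 0.12, 0.43 and 0.55 at 3 dpa, and TCDD arrays −0.03, −0.23 and −0.33 at 2 dpa and −0.77, −0.07 and −0.12 at 3 dpa. The groups did not overlap. Its 2 probe sets gave −0.53 and −0.57, and neither was called when fitted singly (limma adjusted p = 0.053 and 0.0941). The duplicate slc37a4b gave −0.33 (adjusted p = 0.279), and −0.18 without the 3 arrays. The slc37a4a effect was −0.39 without the 3 arrays (adjusted p = 0.116, within a spread from 0.0235 to 0.178).

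The monocarboxylate carriers (slc16), which include exporters of lactate, spread further than any other family of 3 or more measured genes, with effects from −1.20 to 2.28, and none of the 5 was called. The gene slc16a3b belongs to the lactate exporter MCT4. Its vehicle arrays read −0.30, −0.48 and −0.32 at 2 dpa and −0.05, 0.05 and −0.64 at 3 dpa. Its TCDD arrays read 0.63, 0.25 and 3.24 at 2 dpa and 3.72, −0.52 and 2.90 at 3 dpa. The 3 arrays that stand apart thus read at least 2.90 and the other TCDD arrays at most 0.63. The mean effect was 1.99 (SE 0.72, adjusted p = 0.134), and without the 3 arrays it was 0.25. For slc16a9a the 3 arrays read 4.59, 4.24 and 5.52, while the other TCDD arrays read −0.18, 0.06 and −0.98 and the vehicle arrays −1.50 to 1.86. Its effect of 2.28 (SE 1.21, adjusted p = 0.312) became −0.45 without them. Its duplicate slc16a9b read 2.00, 1.58 and 2.76 on the 3 arrays, −0.13 to 0.35 on the other TCDD arrays and −2.05 to 0.03 on vehicle arrays, with an effect of 1.55 (adjusted p = 0.121) that became 0.49. The creatine carrier gene slc16a12b ran the other way: −2.83, −2.31 and −1.66 on the 3 arrays, 0.32, 0.36 and −0.87 on the other TCDD arrays and −0.79 to 0.47 on vehicle arrays. Its effect of −1.20 (adjusted p = 0.216) became −0.30. The lactate carrier gene slc16a1b varied little, with an effect of −0.04 and all readings from −0.41 to −0.16. Its probe set has a median ratio of 0.81.

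**Figure D3:**
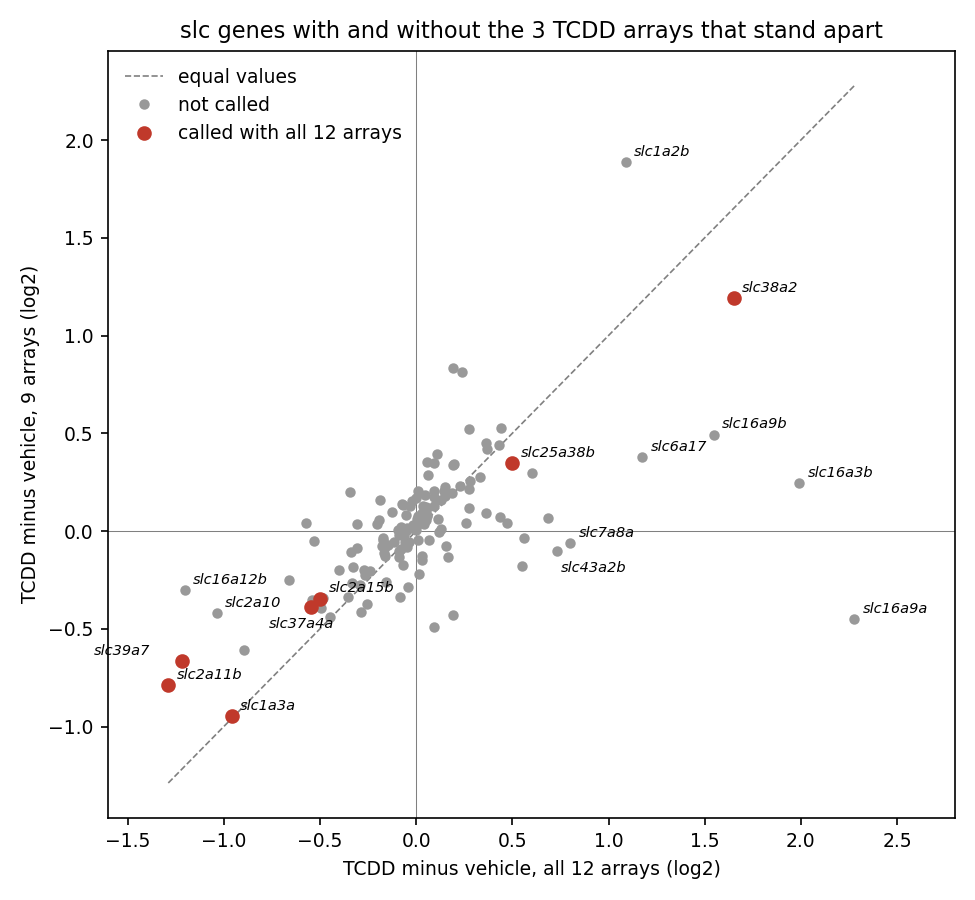
Mean TCDD effect on the log2 scale for 137 slc genes with all 12 arrays (horizontal axis) and with 9 arrays, without the 3 TCDD arrays that stand apart (vertical axis). The dashed line marks equal values and red points are genes called with all 12 arrays. The gene slc1a3a lies on the line, slc38a2 falls from 1.65 to 1.19, and slc16a3b and slc16a9a fall from 1.99 and 2.28 to 0.25 and −0.45.

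The same 3 arrays carried the readings of several other carriers. The amino acid exchanger gene slc7a8a read 1.41, 1.21 and 2.33 on them and −0.23 to 0.30 on the other TCDD arrays. The carrier gene of large neutral amino acids slc43a2b read 0.99, 1.37 and 1.53 on them and −0.48 to −0.13 on the other TCDD arrays. The phosphate carrier gene slc20a1b read 1.13, 0.95 and 1.43 on them and −0.10 to 0.01 on the other TCDD arrays. None was called, and without the 3 arrays the effects of 0.80, 0.73 and 0.69 became −0.06, −0.10 and 0.07. The mean of 9 neutrophil and macrophage markers was 0.69, 0.59 and 0.52 on the same 3 arrays, −0.45, −0.19 and −0.69 on the other TCDD arrays and −0.63 to 0.19 on vehicle arrays. Of those markers mpx, the myeloperoxidase gene of neutrophils, was called higher on both days (0.67, adjusted p = 0.0222, and 0.91, adjusted p = 0.0022). No other of the 9 was called on either day. Their median effect was −0.05 at 2 dpa, with 5 below 0, and 0.13 at 3 dpa, with 1 below 0. The mean of 14 muscle markers was 1.45 on TCDD 3 dpa replicate 3 and −0.32 and −0.30 on the other 2 of the 3 arrays, so it was not high on all 3. The part of neutrophils and macrophages in these readings was not tested.

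Among metal carriers, slc39a7 fell. It encodes a carrier that moves zinc from the endoplasmic reticulum and Golgi into the cytosol. Vehicle arrays read 0.40, 0.49 and 0.65 at 2 dpa and −0.02, 0.41 and 0.26 at 3 dpa, and TCDD arrays 0.03, −0.06 and −1.50 at 2 dpa and −1.31, −0.58 and −1.70 at 3 dpa. The groups did not overlap on either day. Across days 1 vehicle array (−0.02) lay below TCDD 2 dpa replicate 1 (0.03). The effect was −1.22 (SE 0.27, adjusted p = 0.0327), or 2.33-fold lower, with both probe sets lower (−1.14 and −1.30). Without the 3 arrays it was −0.66. With 1 array left out at a time the call held in 4 of 12 fits, and it was lost without any 1 of the 6 vehicle arrays. Its alternatives gave 0.0169 to 0.154, the highest with the hybridisation level as a block. The other 5 slc39 genes lay between −0.53 (slc39a13, −0.05 without the 3 arrays) and 0.16 (slc39a6), none called. The zinc exporters slc30 held 5 genes from −0.31 to 0.23, none called. The copper uptake gene slc31a1 was lower by 0.66, an effect of −0.66 (adjusted p = 0.0838), and −0.25 without the 3 arrays. The iron carriers slc11a2 and slc40a1, importer and exporter, had effects of −0.09 and −0.34 and were not called. The slc40a1 effect without the 3 arrays was 0.20. The 16 metal carriers as a class had a median of −0.08, with 5 above 0.

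The mitochondrial carriers (slc25), which pass metabolites, nucleotides and cofactors through the inner membrane, were the largest family with 25 genes. Their effects ran from −0.50 (slc25a48) to 0.56 (slc25a25a, −0.04 without the 3 arrays) around a median of −0.01, 12 of them above 0. The glycine carrier gene slc25a38b, which serves heme synthesis, was called: vehicle arrays read −0.06, −0.20 and −0.29 at 2 dpa and −0.18, −0.19 and 0.09 at 3 dpa, and TCDD arrays 0.05, −0.15 and 0.47 at 2 dpa and 0.54, 0.46 and 0.78 at 3 dpa. The groups overlapped at 2 dpa and not at 3 dpa. The mean effect was 0.50 (SE 0.11, adjusted p = 0.034), a fold of 1.41, and 0.35 without the 3 arrays (adjusted p = 0.119, within a spread from 0.0224 to 0.138). Other carriers of red cells, where heme is made in quantity, gave 0.00 for the iron importer gene slc25a37 and 0.15 for the anion exchanger gene slc4a1a, neither called. The probe sets of both have median ratios below 1 (0.50 and 0.58), so these values say little about red cells. None of 12 measured red blood cell markers was called, 7 of them with median ratios below 1 in all probe sets, and their mean ran from −0.69 to −0.45 on vehicle and from −0.55 to −0.26 on TCDD arrays. The carnitine carrier gene slc25a20 (−0.40) and the oxoglutarate carrier gene slc25a11 (−0.35) were not called (adjusted p = 0.109 and 0.0913), and slc25a20 was at −0.20 without the 3 arrays. The ADP/ATP carrier gene slc25a4, whose probe set has a median ratio of 0.83, had an effect of 0.06.

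**Figure D4:**
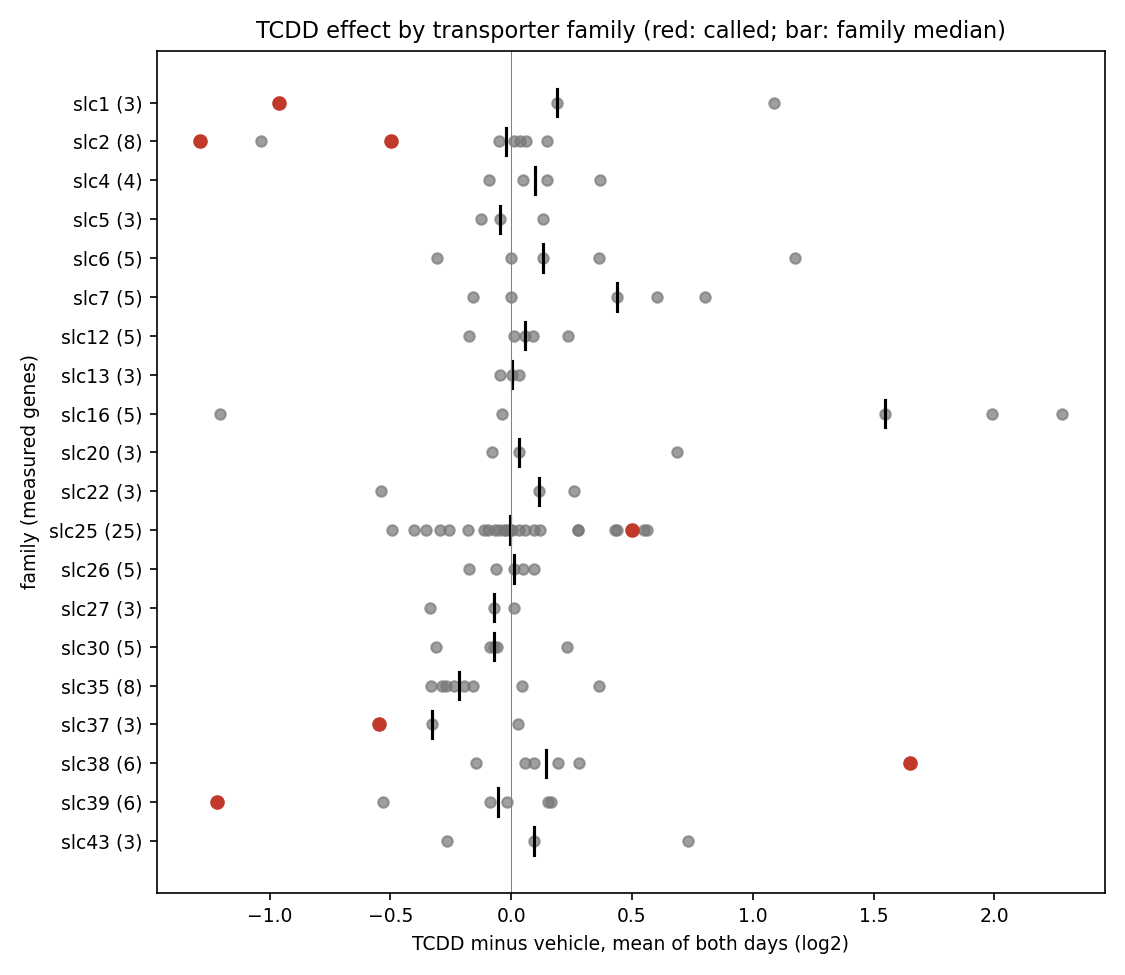
Mean TCDD effect over both days on the log2 scale (horizontal axis) for each gene of the families with 3 or more measured members (vertical axis, with the number of genes). Red points were called, and bars are family medians. The slc25 genes lie within −0.50 and 0.56, and the 5 slc16 genes span −1.20 to 2.28.

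Carriers of inorganic ions had the smallest median absolute effect of the substrate classes: 23 genes had 0.09, with a median effect of 0.04, against 0.13 over all features, and none was called. By family number the class also counts slc4a1ap, which is not a transporter. In slc4a1a, slc8a4b, slc12a3, slc12a8, slc20a1a, slc26a1, slc26a2, slc26a10 and slc34a2a every probe set has a median ratio below 1. The part of such probe sets in the small median was not tested. The chloride-bicarbonate exchanger gene slc4a2a had an effect of 0.37 (adjusted p = 0.128). Its 3 probe sets gave 0.82 (adjusted p = 0.00416 when fitted singly), 0.28 and 0.01, so the mean joins unlike readings. The cation-chloride cotransporters (slc12) held 5 genes between −0.17 and 0.24. The slc35 family includes carriers that supply the Golgi with nucleotide sugars for glycans, and the substrate of each member was not checked. Of its 8 measured genes 6 were below 0, with a median of −0.22 and none called. Among them slc35f2 had all TCDD arrays below all vehicle arrays (−0.27, adjusted p = 0.0899), and slc35b2, a carrier of the sulfate donor, gave 0.36, and 0.09 without the 3 arrays. Of the 137 genes 28 had every probe set at a median ratio below 1, and 19 varied with a standard deviation under 0.1 over the 12 arrays. Of those 19, 14 were among the 28.

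At 2 dpa alone the fit called 0 of the 137 genes, against 0.193% of all features. An unadjusted p under 0.05 was found in 15 of them (10.9%, against 10.7%), and probe sets fitted singly also gave 0. Groups did not overlap in 29 (21.2%, against 20.8%), 14 of them higher (10.2%, against 8.57%) and 15 lower (10.9%, against 12.2%). The lowest adjusted p was that of slc1a3a (−0.96, 0.141). The largest increases without overlap were those of slc16a3b (1.74), slc38a2 (1.61), slc16a9b (1.61), slc6a17 (1.15) and slc7a3a (0.76), and the others of the 10 were slc7a7, slc20a1b, slc4a2a, slc9a8 and slc35b2, from 0.61 to 0.35. Without TCDD 2 dpa replicate 3 and the other 2 arrays that stand apart, slc16a3b was at 0.80, slc16a9b at 1.03, slc38a2 at 1.27, slc6a17 at 0.81 and slc20a1b at 0.16. The largest decreases were those of slc39a7 (−1.02), slc2a11b (−1.02), slc1a3a and slc2a10 (−0.92), followed by slc39a13, slc25a48, slc25a20, slc22a2, slc31a1 and slc37a4a from −0.57 to −0.41. With the 3 arrays left out slc39a7 was at −0.53, slc2a11b at −0.62, slc1a3a at −0.71 and slc2a10 at −0.48.

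At 3 dpa alone 0 of the 137 genes were called, against 0.57% of all features, with an unadjusted p under 0.05 in 22 (16.1%, against 16%). Probe sets fitted singly gave 1, a probe set of slc4a2a (0.87, adjusted p = 0.0304). Groups did not overlap in 23 (16.8%, against 16.6%), 10 of them higher (7.3%, against 8.19%) and 13 lower (9.49%, against 8.41%). The lowest adjusted p was again that of slc1a3a (−0.96, 0.0861), and 0.0327 without the 3 arrays. The largest decreases without overlap were those of slc14a2 (−2.19), slc16a12b (−1.86), slc2a11b (−1.56), slc39a7 (−1.42) and slc2a10 (−1.15). The largest increases were those of slc38a2 (1.69), slc25a25a (0.74), slc25a38b (0.69), slc6a19b (0.58) and slc25a55a (0.53). The others named by the same rule were slc1a3a, slc24a4a, slc37a4a, slc2a15b and slc27a1a, from −0.96 to −0.35, and slc38a8b, slc15a4, slc4a2a, slc32a1 and slc5a8l, from 0.47 to 0.14. When TCDD 3 dpa replicate 2 alone was kept of its group and TCDD 2 dpa replicate 3 was left out, slc25a25a was at 0.20, slc38a2 at 1.11, slc2a10 at −0.36, slc39a7 at −0.80, slc2a11b at −0.96, slc16a12b at −1.12 and slc14a2 at −2.04. Leaving out 1 array changed the count, as it did over all features (29 to 393, against 77 with all arrays). Without TCDD 2 dpa replicate 3, 5 genes were called (slc1a3a, slc2a15b, slc16a12b, slc25a38b and slc39a7). That array is in neither 3 dpa group, so the 3 dpa effects stay the same and the shared estimate of spread changes. Without TCDD 3 dpa replicate 2, 4 were called (slc6a17, slc16a3b, slc31a1 and slc43a2b). Without vehicle 3 dpa replicate 2, slc14a2 was called.

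**Figure D5:**
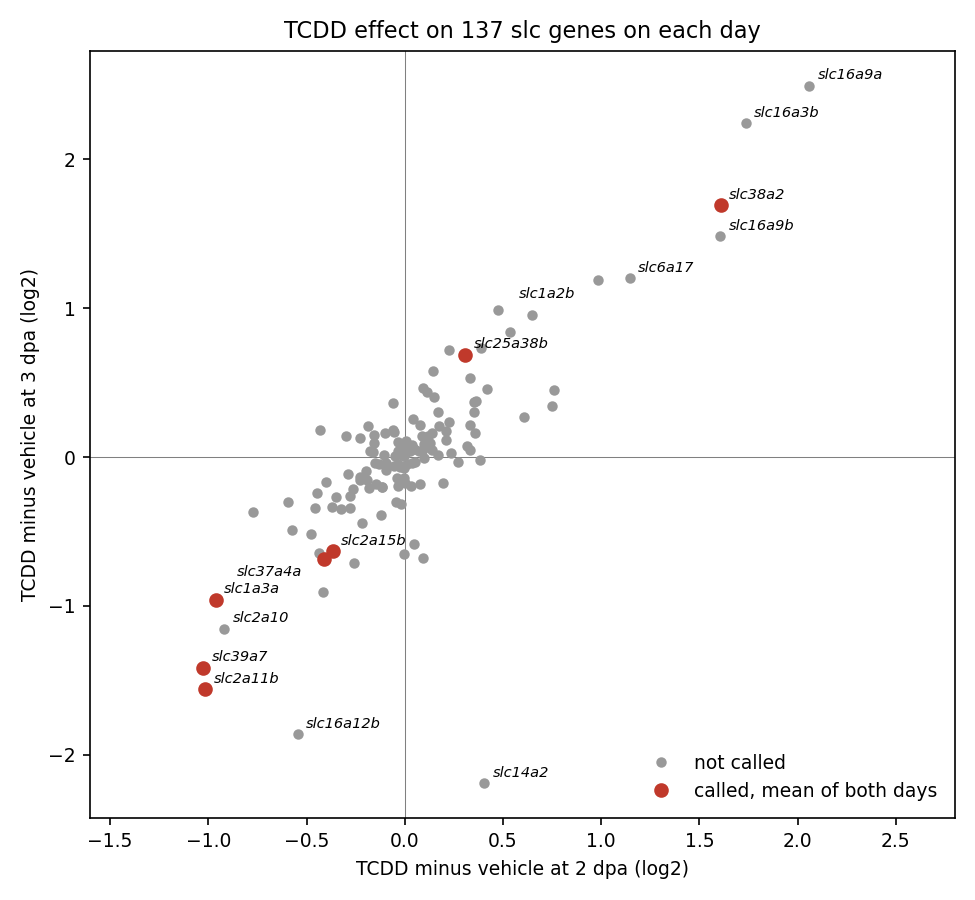
TCDD minus vehicle at 2 dpa (horizontal axis) and at 3 dpa (vertical axis) on the log2 scale for 137 slc genes, with genes called in the mean of both days in red. The 7 called genes have the same sign on both days, and slc14a2 lies apart at 0.40 and −2.19.

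The days share no arrays in the TCDD comparisons, although they share 1 estimate of spread. The effect had the same sign on both days in 103 of the 137 genes (75.2%), against 70.3% of all features. Groups stayed apart in 1 direction on both days in 10 genes (7.3%, against 7.54%), 2 of them higher (1.46%, against 3.07%) and 8 lower (5.84%, against 4.47%). Groups apart in opposite directions on the days were found in 0 slc genes, against 0.0222% of all features. The test of the difference between the days called 0 of the 137 genes with limma, against 0% of all features, with an unadjusted p under 0.05 in 2 (1.46%, against 1.44%). The largest difference was in the urea transporter gene slc14a2. Its vehicle arrays read −0.66, −0.09 and 0.09 at 2 dpa and 1.74, 0.26 and 2.74 at 3 dpa. Its TCDD arrays read 0.28, 0.94 and −0.67 at 2 dpa and −0.68, −0.47 and −0.70 at 3 dpa. All vehicle arrays of 3 dpa lay above those of 2 dpa, while the TCDD arrays of the days overlapped. The difference of −2.59 (SE 0.79, unadjusted p = 0.00829) did not pass adjustment. Differences of 0.44 to 0.62 in slc5a6b, slc43a2b, slc16a3b, slc48a1b and slc3a2a and of −1.32 to −0.63 in slc16a12b, slc25a43, slc37a4b and slc43a1a were not called either.

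From 2 to 3 dpa the fit called 0 of the 137 genes in vehicle fins and 0 in TCDD fins, against 0% of all features in both, with an unadjusted p under 0.05 in 3 vehicle genes (2.19%, against 3.64%) and 4 TCDD genes (2.92%, against 3.76%). Probe sets fitted singly gave 0 in both. The vehicle arrays of 2 dpa were all at the lower hybridisation level and those of 3 dpa all at the higher. Day and level therefore cannot be told apart in vehicle fins. There the groups did not overlap in 3 genes (2.19%, against 11.1% of all features). These were slc14a2 (1.80) and, lower at 3 dpa, slc37a2 (−0.34), a sugar-phosphate exchanger gene, and slc25a12 (−0.27), an aspartate-glutamate carrier gene of mitochondria. In TCDD fins they did not overlap in 4 genes (2.92%, against 5.33%): slc49a4, slc38a8b and slc25a44a were 0.25 to 0.28 higher at 3 dpa, and slc30a9 had an effect of −0.11. The 3 slc30a9 probe sets gave −0.42, 0.06 and 0.02, so its mean joins unlike readings. The comparisons between days use the same arrays as those between treatments.

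Duplicated genes gave another view within the group. For 9 pairs both the a and the b copy was measured, and in 6 the mean TCDD effects had the same sign. The share among other pairs of genes was not counted, so the 6 cannot be read as a trait of duplicates. In slc16a9 and slc37a4 both copies had effects over 0.3 in the same direction, of which that of slc37a4a was called. The slc16a9 copies were on opposite sides of 0 without the 3 arrays (−0.45 and 0.49). In slc43a2 the values were 0.09 and 0.73, in slc20a1 0.03 and 0.69, and in slc25a55 0.43 and −0.05, none of them called. The slc20a1a, slc34a2a and slc43a2b probe sets had median ratios below 1.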

How the data were processed

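Regrown caudal fin tissue was measured on 12 zebrafish expression arrays in 4 groups of 3. Per the submitters' processing notes the authors used GCRMA, whose version is not given in the sources used here, and the deposited value is a linear ratio. Of 15502 tested probe sets 12018 have a median of 1 over the 12 arrays (tolerance 1e-06), as after division by their own median. The other 3484 have a lower median, so their divisor was larger than their median. How it was set is not given in the sources used here, and whether these are probe sets of low signal was not tested. The ratios give no level or background.

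The 115 control probe sets were left out. Log2 ratios, taken without a pseudocount, were averaged over the probe sets of each gene. GEO's platform annotation, which can be old, gave 10795 probe sets 1 symbol, 135 several and 4572 none, and those of the last 2 kinds stayed single, which left 13500 features. limma 3.58.1 (lmFit, eBayes) in R 4.3.3 fitted 4 group means to all 12 arrays, leaving 8 residual degrees of freedom, to which moderation added 2.16. Calls needed a p, Benjamini-Hochberg adjusted across all features, of less than 0.05. Intervals are 95% intervals of the fit, tests are two-sided, and 3 arrays against 3 allow no exact permutation p below 0.1. The number of arrays limits the precision.

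Replicate numbers were not taken as pairs. Same-numbered arrays of compared groups had correlations of deviations from −0.26 to 0.50, with 7 of 12 above 0.1. Arrays with different numbers were not compared in this way, so the check cannot show whether the numbers pair samples. Genes named are those called, up to 10 per direction in a TCDD comparison without overlap between the groups, up to 6 per direction in a comparison of days, the 5 per direction with the largest difference between days, family extremes and a fixed set of well-known carriers. Members and lists were chosen with earlier results of these data known. Alternatives were array centring, quantile normalization, single probe sets, probe sets with a median of 1 alone, a pseudocount of 0.1, blocks, robust moderation, fewer groups and left-out arrays. A motif search in promoters was not run, since no sequences were used here.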

Additional observations from a re-analysis of the deposited data

How the results depend on the processing

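With 1 array left out at a time, 2 to 20 slc genes were called in the mean of both days, 0 to 5 at 3 dpa and 0 at 2 dpa. Over all features the calls ranged from 310 to 1417, from 29 to 393 and from 9 to 49. In the mean of both days the slc count was 11 after quantile normalization and 12 without probe sets of low median, which tests fewer features, and all of the 7 genes were among them. It was 1 with the hybridisation level as a block and 3 without the 3 TCDD arrays, and all features gave 360 and 439. At 2 dpa quantile normalization called 1 slc gene (slc1a3a) and 164 features, and the hybridisation block 40. At 3 dpa 1 slc gene was called without the 3 arrays and 1 by single probe sets. All features at 3 dpa gave 193 with the hybridisation block, 10 with the arrays of the compared groups alone and 242 without the 3 arrays. Between days the hybridisation block called 19 features in vehicle fins, where the slc median became −0.10, and 13 in the difference of TCDD effects. In these fits the level is estimated from the TCDD 3 dpa arrays alone, the only group with both levels. Without the 3 arrays 54 were called between days in TCDD fins and 1 in the difference. Beyond the construction of these alternatives the cause was not tested. The fit with a replicate block called 9 slc genes in the mean of both days, the 7 among them, and 1 (slc2a11b) of 139 features at 3 dpa, and it changed no other slc count. For the slc counts of 9, 11 and 12 the calls over all features are not given here. Those rises therefore cannot be read as particular to slc genes. Whether the replicate numbers pair the samples was not settled by the check of their deviations. Fits to the compared groups alone gave no value for the mean of both days, which already uses all arrays. Of 2049 alternatives for single genes 53 lost a call and 37 gained one. Only the 7 genes called in the mean of both days had a call to lose, so the 53 are not a share of the 2049. No effect called in either fit had the opposite sign in the other, and effects never called could not enter that count. Effects never called did change sign, as for slc16a9a (2.28 to −0.45 without the 3 arrays).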

Other observations

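Of a list of transport genes outside the slc naming scheme (sodium pump subunits, ABC transporters, organic anion carriers named slco, aquaporins and mitochondrial pores), 31 genes were measured. Their median TCDD effect over both days was 0.02, with 18 above 0. The sodium pump gene atp1a1a.2 was called lower (−0.91, SE 0.23, limma adjusted p = 0.0492) and the other 30 were not called. Of 12 measured genes of the amino acid and endoplasmic reticulum stress response, a list added after the values of slc38a2 were seen, the transcription factor gene atf4a was called higher (0.53, adjusted p = 0.023) and the translation repressor gene eif4ebp1 lower (−0.85, adjusted p = 0.0391). The asparagine synthetase gene asns had an effect of −0.04 and was not called. The mean of the 12 ran from −0.38 to −0.04 on vehicle arrays and from −0.22 to 0.17 on TCDD arrays, so the groups overlapped.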
